A study of Saccharomyces cerevisiae with 6 samples.

Results

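The *VPS* (vacuolar protein sorting) genes of budding yeast were examined for their response to pterostilbene, a methylated stilbene of grapes and blueberries that inhibits fungal growth. Members were taken by symbol: every probe set annotated with a single gene whose name is VPS followed by digits alone. This gave 41 of the 5656 genes on the array, and each was read by 1 probe set, the short oligonucleotides that the array devotes to a transcript. The cells were of *S. cerevisiae* strain S288C, the haploid alpha laboratory strain of the reference genome, in minimal glucose medium. A set of 3 cultures received 70 μM pterostilbene, its inhibitory concentration for growth (IC50), and 3 parallel cultures received 0.25% DMSO, the solvent, a share that the labels give for the controls alone. Additions were made at an absorbance of 0.2 and every culture was collected at 0.5, so slower growth or a later collection cannot be told apart from a direct action of the compound. In such bulk RNA, fewer cells with a transcript and less of it per cell cannot be told apart either.

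Vacuolar protein sorting carries hydrolases from the late Golgi through the endosome to the vacuole, the lysosome of yeast. The genes were found through mutants that secrete carboxypeptidase Y instead of delivering it, and many products act as stable assemblies. ESCRT complexes sort ubiquitinated membrane proteins into vesicles that bud into the endosome. Retromer returns sorting receptors from the endosome to the Golgi, and the CORVET and HOPS complexes tether membranes before fusion at the endosome and the vacuole. Other genes that carry the symbol encode a Rab GTPase, a lipid kinase complex, a dynamin-like GTPase and even chromatin proteins, since the name reports a mutant phenotype and not a shared biochemistry.

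The deposited values are linear signals, in the intensity units of the Affymetrix software, and differences are given as log2 changes (log2 of the fold change of pterostilbene over control) with their standard error (SE). The verbs rose and fell are kept for genes whose moderated test in limma gave an adjusted p (Benjamini-Hochberg over 9275 probe sets) under 0.05. Correlations of log2 signals were 0.977 to 0.99 among arrays of the same group and 0.886 to 0.903 between the groups. The mating type of the strain was checked by the summed signals of 4 alpha-specific and 5 a-specific genes. The sums were 20011 to 20956 and 369 to 492 on the control arrays, and 4896 to 5972 and 685 to 950.3 on the pterostilbene arrays. Of this last alpha sum, *MF(ALPHA)1* alone gave 4430 to 5478. All 4 alpha genes fell, *MF(ALPHA)1* by a log2 change of -1.30, *STE3* -3.06, *SAG1* -4.22 and *MF(ALPHA)2* -4.73. Of the a genes, *MFA1* (1.11) and *BAR1* (1.77) rose, *STE2* (-0.95) fell, and *MFA2* and *AGA2* did not pass. The log2 fold change of the median gene was 0.22 for deposited signals, -0.23 after centring each array on its median, -0.13 after quantile normalization and 0.36 after centring on 5 reference genes. Bacterial poly-A control transcripts were also 3.79-fold higher on the pterostilbene arrays, and the part of this shift in the results was not tested.

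Of the 41 *VPS* genes, 15 rose and 4 fell, and 22 did not pass the test. Over all genes 35.8% rose and 18.4% fell, against 36.6% and 9.76% of the *VPS* genes, so the share that rose was close to the background. The median log2 fold change was 0.25, beside 0.22 over all genes. Changes were moderate, with 35 of the 41 genes within 2-fold of the controls. Among those that passed, 5 were at least 2-fold higher, *VPS21*, *VPS73*, *VPS501*, *VPS20* and *VPS35*, where 17% of all genes were, and 1, *VPS75*, was at least 2-fold lower, where 3.98% of all genes were. For 22 of the *VPS* genes all treated arrays exceeded all controls, and for 8 all were under them, beside 44.2% and 24.5% of all genes. Mean control signals ran from 23.0 for *VPS51* to 1447 for *VPS68*, with a median of 197, beside 207 over all genes.

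**Figure D1:**
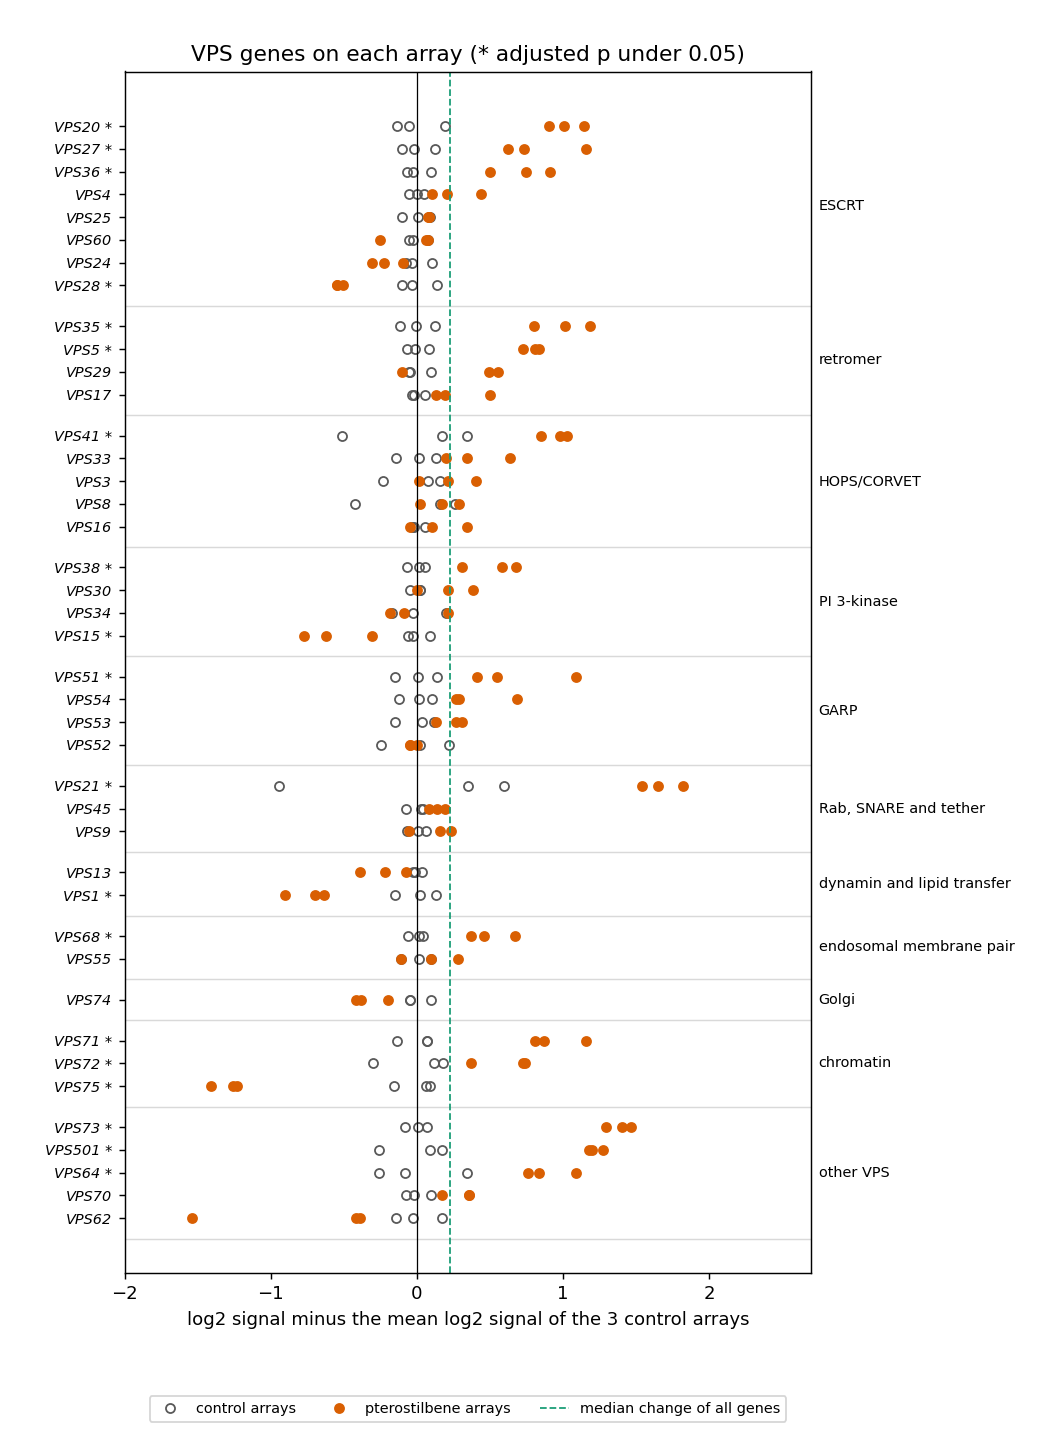
Log2 signal of each of the 41 *VPS* genes on the 3 control arrays (open circles) and 3 pterostilbene arrays (filled circles), as the difference from the mean of the control arrays, grouped by complex or role. The dashed line is the median change of all genes, 0.22, and a star marks an adjusted p under 0.05. The pterostilbene points of *VPS21*, *VPS73* and *VPS501* lie furthest right and those of *VPS75* lie left of every control point.

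The ESCRT genes did not move as a block. Of 8 ESCRT members with a *VPS* symbol, 3 rose, 1 fell and 4 did not pass, with a median of 0.17. *VPS27* encodes the ESCRT-0 subunit that binds ubiquitin and phosphatidylinositol 3-phosphate on the endosome. Its signals were 395, 356 and 337 on the control arrays and 558, 601 and 807 on the pterostilbene arrays, a log2 change of 0.84 ± 0.17 (SE; adjusted p = 0.010). The groups did not overlap, and the highest value came from pterostilbene replicate C. Its binding partner in ESCRT-0, *HSE1*, changed by nearly the same amount, with a log2 change of 0.88 ± 0.10 (SE; adjusted p = 0.0017). After median centring *VPS27* did not pass (0.38, adjusted p = 0.082), while *HSE1* passed under each of the 4 scalings.

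*VPS28*, a subunit of ESCRT-I, was the ESCRT member that fell. Its signals were 226, 200 and 191 in the controls and 140.2, 144 and 140.5 with pterostilbene, a log2 change of -0.53 ± 0.10 (SE; adjusted p = 0.0091). All pterostilbene arrays lay below all controls and within a few units of each other. The other ESCRT-I genes measured did not pass, with log2 fold changes of 0.02 for *STP22* (*VPS23*), 0.13 for *SRN2* (*VPS37*) and -0.12 for *MVB12*. However, *STP22* passed as lower after median centring (-0.43, adjusted p = 0.010) and *SRN2* after quantile normalization (-0.43, adjusted p = 0.027). In ESCRT-II, *VPS36*, whose product carries the complex's ubiquitin-binding domain, had signals of 255, 247 and 277 in the controls and 488, 366 and 436 with pterostilbene, a log2 change of 0.72 ± 0.14 (SE; adjusted p = 0.0085). The groups were well apart, although *VPS36* did not pass after quantile normalization (0.40, adjusted p = 0.086) or median centring (0.27, adjusted p = 0.17). Its fellow subunit genes *VPS25* (0.08, adjusted p = 0.51) and *SNF8* (adjusted p = 0.998, a change of nearly 0) did not pass. Both passed as lower after quantile normalization (-0.33 and -0.47) and median centring (-0.37 and -0.45).

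ESCRT-III proteins polymerize on the membrane and cut the vesicle free. *VPS20*, the subunit that starts the polymer, had signals of 117, 98.9 and 93.6 in the controls and 193, 207 and 228 with pterostilbene, a log2 change of 1.02 ± 0.13 (SE; adjusted p = 0.0022). With deposited signals and the brightest probe sets, this was the largest change of any ESCRT gene measured. The rise passed in all 16 alternative analyses, but its rank did not hold in each. After quantile normalization and median centring *VPS20* had 0.57 in both, and *VPS28*, among others, changed by more (-0.97 and -0.99). *SNF7*, the gene of the main polymer subunit, rose by less with its brightest probe set, 0.53 (SE 0.10, adjusted p = 0.0089). It did not pass after median centring (0.07). With its probe sets averaged the log2 fold change was larger than that of *VPS20*, 1.17, but did not pass (adjusted p = 0.085). *VPS24* (-0.21, adjusted p = 0.16) and *DID4* (*VPS2*, -0.13, adjusted p = 0.27), whose products end the polymer, did not pass, and neither did *VPS60* (-0.04, adjusted p = 0.83), an accessory subunit. After median centring each of these passed as lower (-0.66, -0.58 and -0.49). After quantile normalization *VPS24* (-0.56) and *DID4* (-0.44) did. *VPS4*, the ATPase that takes the polymer apart, had a log2 fold change of 0.25 (adjusted p = 0.14). The gap between the changes of *VPS20* and *VPS28* was 1.55 on the log2 scale for deposited signals and with either centring, since centring moves all genes of an array alike, and 1.54 after quantile normalization. These genes were picked for their changes, so the gap is a description.

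**Figure D2:**
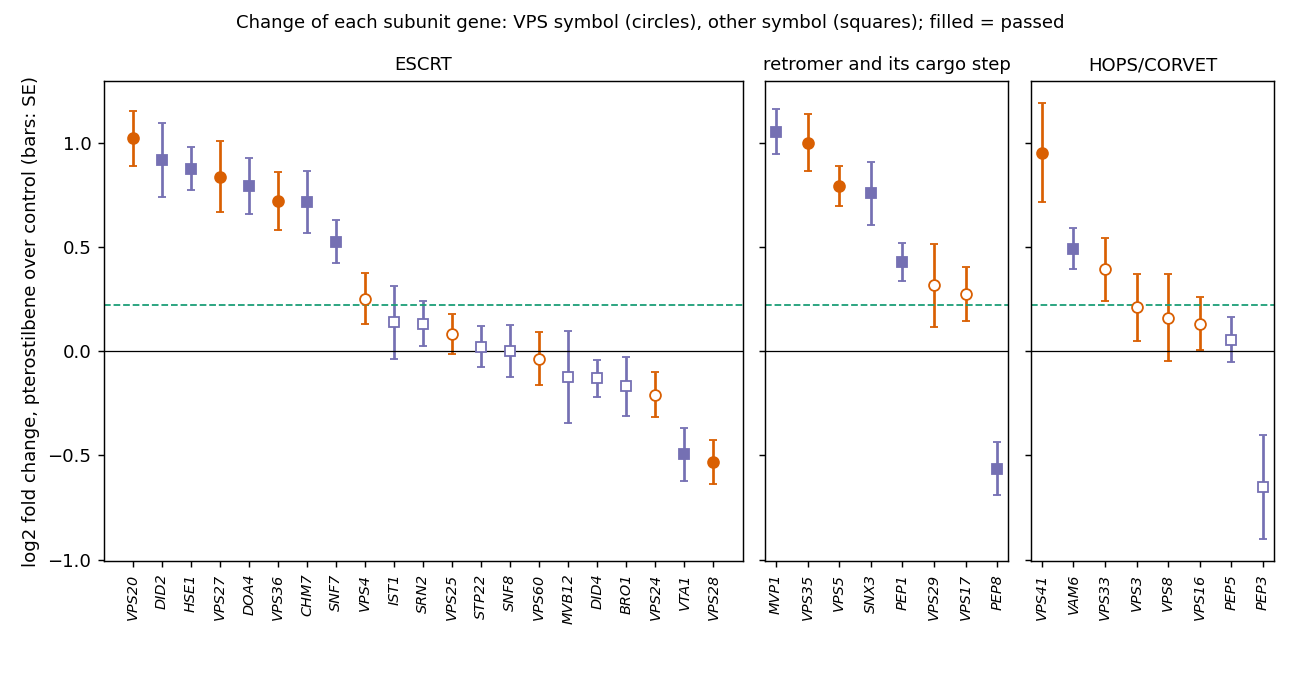
Log2 fold change of pterostilbene over control for each gene of ESCRT, of retromer with its receptor and recycling genes, and of HOPS and CORVET. Circles carry a *VPS* symbol and squares another symbol, filled symbols passed the test, bars are the SE, and the dashed line is the median of all genes, 0.22. *VPS20* at 1.02 and *VPS28* at -0.53 bound the ESCRT genes, and *PEP8* at -0.56 lies apart from the other retromer genes.

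Retromer had the highest median of the 3 complexes, 0.55 over 4 members, with 2 that rose and 2 that did not pass, and none that fell by limma, at an unadjusted p (0 genes) or in the methods' t-test (0 genes). *VPS35* encodes the large scaffold subunit that recognizes cargo. Its signals were 214, 196 and 181 in the controls and 397, 343 and 448 with pterostilbene, a log2 change of 1.001 ± 0.14 (SE; adjusted p = 0.0028). The lowest treated array was well above the highest control, and *VPS35* passed in all 16 alternatives. Both chromosomal neighbours of *VPS35* rose as well, with log2 fold changes of 3.24 for *INO1*, the inositol phosphate synthase gene, and 1.68 for *FBP26*. Both neighbours of *VPS51*, *IRS4* (0.53) and *ALY1* (0.78), and of *PEP12*, *SHE4* (0.74) and *CYC2* (1.25), rose too, beside 35.8% of all genes. By contrast, both neighbours of *VPS73*, which rose, fell (*ARC1* -0.95 and *RPL28* -0.68). Among other members that rose, *VPS27*, *VPS36*, *VPS68* and *VPS71* each had a neighbour that rose. A neighbour fell for each of *VPS5*, *VPS20*, *VPS36*, *VPS38*, *VPS64* and *VPS501*. The part of chromosomal position was not tested.

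*VPS5*, a sorting nexin that bends the membrane, had low signals of 44.6, 40.2 and 41.8 in the controls and 69.9, 74.0 and 75.1 with pterostilbene, a log2 change of 0.79 ± 0.10 (SE; adjusted p = 0.0017). The groups were far apart for the spread within them, but after quantile normalization *VPS5* did not pass (0.16, adjusted p = 0.19). The name of its probe set carries the suffix that Affymetrix uses for oligonucleotides shared by more than 1 sequence, and signal from a related transcript cannot be told apart. *VPS501*, the paralog of *VPS5*, had signals of 66.0, 69.9 and 52.0 in the controls and 143, 141 and 150.1 with pterostilbene, a log2 change of 1.22 ± 0.14 (SE; adjusted p = 0.0015). All treated arrays were over 2 times the control mean of 62.6, and the rise passed in all 16 alternatives.

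*VPS17*, which pairs with *VPS5* in the nexin dimer, had a log2 change of 0.27 ± 0.13 (SE; adjusted p = 0.14). For *VPS29*, the small subunit of the cargo core, it was 0.32 (SE 0.20, adjusted p = 0.24), with 326 and 314 on the first 2 treated arrays but 207 on replicate C, below the controls at 215, 215 and 238. The remaining core subunit gene, *PEP8* (*VPS26*), fell, with a log2 change of -0.56 ± 0.13 (SE; adjusted p = 0.015) from 230.3, 210 and 200.1 to 126, 151 and 156. It fell under each scaling but did not pass without control replicate A (-0.51, adjusted p = 0.053). The changes of *VPS35* and *PEP8*, which encode partners in 1 core, were 1.57 apart on the log2 scale, and 1.64 apart after quantile normalization. The receptor and recycling genes of this route rose together, with 0.43 for *PEP1* (*VPS10*), the carboxypeptidase Y receptor, 0.76 for *SNX3* and 1.05 for *MVP1*, both sorting nexins. *MVP1* passed under each scaling, *PEP1* did not pass after median centring (-0.02) or without control replicate A (adjusted p = 0.052), and *SNX3* did not pass after quantile normalization or median centring.

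HOPS and CORVET share a core and differ in a pair of end subunits. Of 5 members, 1 rose and none fell by limma, with a median of 0.21, close to the 0.22 of all genes. At an unadjusted p under 0.05 there were 2 higher and 0 lower, and the methods' t-test called 0 after adjustment. Of these members 2 rose with the dimmest 25% left out, with robust moderation or with reference gene centring, and 0 fell. Over all genes 39.5%, 38.3% and 43.7% rose there. After quantile normalization or median centring 0 rose and 0 fell. *VPS41*, the HOPS subunit that meets the AP-3 coat, had signals of 34.1, 38.4 and 21.3 in the controls and 61.8, 59.9 and 54.6 with pterostilbene, a log2 change of 0.95 ± 0.24 (SE; adjusted p = 0.021). The groups did not overlap, but the signals were low, and *VPS41* did not pass after quantile normalization (0.30, adjusted p = 0.36) or median centring (0.50, adjusted p = 0.14). It also lost the call in the methods' t-test (adjusted p = 0.053) and without pterostilbene replicate A (adjusted p = 0.067) or B (adjusted p = 0.066).

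The core genes *VPS16* (0.13, adjusted p = 0.44) and *VPS33* (0.39, adjusted p = 0.083), the latter encoding a Sec1/Munc18 protein that guides SNARE pairing, did not pass. Neither did the CORVET genes *VPS3* (0.21, adjusted p = 0.32) and *VPS8* (0.16, adjusted p = 0.56). With reference gene centring *VPS33* passed as higher (0.52, adjusted p = 0.029). Among partners with another symbol, *VAM6* (*VPS39*), the second HOPS end subunit, rose (0.49, adjusted p = 0.0099, though 0.03 and 0.04 without passing in the quantile and median-centred fits), while *PEP5* (*VPS11*, 0.05) and *PEP3* (*VPS18*, -0.65, adjusted p = 0.078) did not pass. *PEP5* and *PEP3* passed as lower after quantile normalization (-0.54 and -1.40) and median centring (-0.40 and -1.11). *PEP3* was dim, at 21.5 to 30.5 in the controls and 12.8 to 22.3 with pterostilbene. Probe sets for mouse genes, which yeast lacks, read 0.7 to 8.8 on these arrays.

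Both kinds of symbol were then counted with deposited signals, where 35.8% of all genes rose and 18.4% fell. Of 21 ESCRT genes 8 (38.1%) rose and 2 (9.52%) fell, and of 5 retromer genes 2 rose and 1 fell. Of 8 HOPS and CORVET genes 2 rose and none fell by limma (1 at an unadjusted p, *PEP3*, and 0 in the methods' t-test). The medians were 0.13, 0.32 and 0.19. All are within 0.1 of the median of all genes. On each pterostilbene array the median *VPS* member of retromer lay 0.64 to 0.67 above its control mean, and that of ESCRT 0.09 to 0.26. The order of the 3 complexes is a description of few genes.

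With deposited signals and all arrays, the largest change of any member was that of *VPS21*, the yeast Rab5 GTPase that recruits CORVET to the endosome. Its signals were 546, 222 and 648 in the controls and 1343, 1245 and 1515 with pterostilbene, a log2 change of 1.67 ± 0.42 (SE; adjusted p = 0.021). Every treated array was above every control, but control replicate B lay far under its fellows. Without it the log2 fold change was 1.20 (adjusted p = 0.0060), a 2.29-fold rise in place of 3.18-fold, and *VPS73* (1.39) and *VPS75* (-1.38) had larger changes. *VPS75* also had the larger change after quantile normalization (-1.67 beside 1.56) and median centring (-1.75 beside 1.22). After median centring the change of *VPS62* (-1.23, adjusted p = 0.033) was slightly larger than that of *VPS21* too. With all controls kept, the call was lost after median centring (1.22, adjusted p = 0.054), in the methods' t-test (adjusted p = 0.059) and without any 1 of the pterostilbene arrays (adjusted p = 0.055 to 0.067).

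Of the other Rab5-type genes, *YPT52* rose, with a log2 change of 0.46 ± 0.11 (SE; adjusted p = 0.018), but it did not pass after quantile normalization or median centring or without control replicate A or B or pterostilbene replicate B (adjusted p = 0.052 to 0.065). *YPT53* passed as higher (adjusted p = 0.028), but its control signals were 5.9, 3.7 and 12.4, of which 2 lie within the 1.3 to 7 of mouse probe sets on the control arrays, beside 17.7, 20.0 and 22.7 with pterostilbene, so no size is given. It did not pass after quantile normalization or median centring, in the methods' t-test (adjusted p = 0.073), or without control replicate A or any 1 of the pterostilbene arrays (adjusted p = 0.065 to 0.084). *VPS9*, whose product loads these Rabs with GTP (0.11, adjusted p = 0.45), and *VPS45*, a Sec1/Munc18 protein (0.14, adjusted p = 0.27), did not pass.

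**Figure D3:**
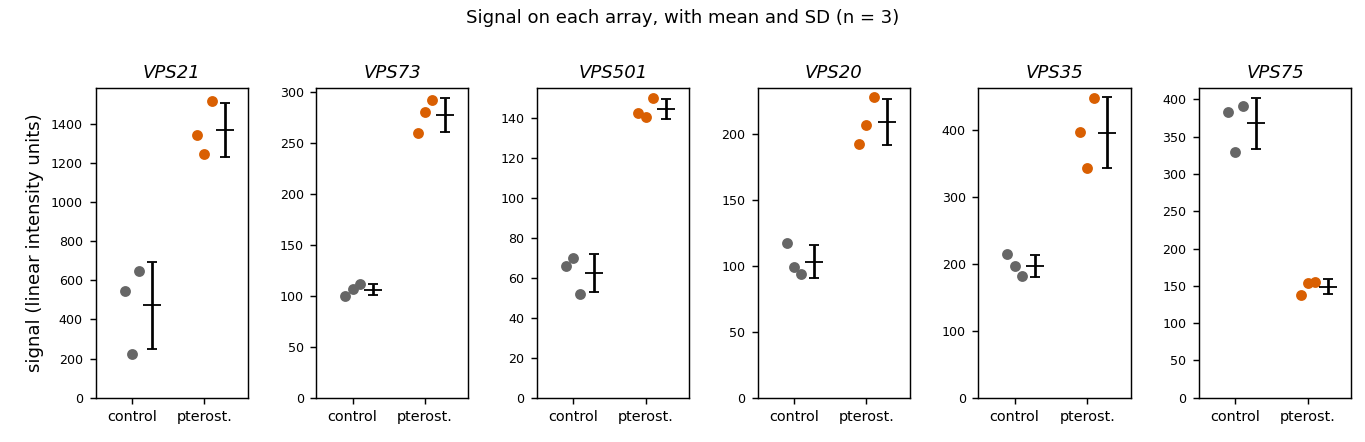
Signal of the 6 *VPS* genes that passed with at least a 2-fold change on each control array and each pterostilbene array, in linear intensity units, with the mean and SD of 3 arrays. *VPS21* shows 1 control array at 222 under the others, and *VPS75* is the only one of the 6 whose treated arrays lie below the controls.

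The genes of the SNAREs and vacuolar Rab that these factors serve diverged. *PEP12* (*VPS6*), the endosomal SNARE, had the largest rise of all 75 genes listed, from 95.7, 87.3 and 85.6 to 429, 394 and 540, a log2 change of 2.33 ± 0.15 (SE; adjusted p = 2.7e-04). *TLG2*, a SNARE of the Golgi and endosome and the partner of Vps45p, rose by 1.41 (SE 0.19, adjusted p = 0.0024) on the log2 scale. Both passed under each scaling. *YPT7*, the Rab of the vacuole to which HOPS binds, fell from 1160, 1121 and 1279 to 583, 614 and 664, a log2 change of -0.94 ± 0.11 (SE; adjusted p = 0.0015), also under each scaling. *VAM7* (*VPS43*), a vacuolar SNARE, rose by 0.56 (adjusted p = 0.0090) but did not pass under quantile normalization (adjusted p = 0.98) or median centring (0.11), and *VAM3* (0.23), *VTI1* (0.12) and *PEP7* (0.31) did not pass.

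In the phosphatidylinositol 3-kinase complex, the gene of the regulatory kinase *VPS15* fell, from 259 and 265 in control replicates B and C and a higher value in A to 158, 175 and 218, a log2 change of -0.57 ± 0.15 (SE; adjusted p = 0.024). The treated arrays were all below the controls, and the direction held under each scaling, but the call was lost without any 1 array except pterostilbene replicate C (adjusted p = 0.055 to 0.081). *VPS34*, the catalytic subunit, had a log2 fold change of -0.02 (adjusted p = 0.93) and *VPS30*, the Beclin homolog, 0.20 (adjusted p = 0.24). *VPS38*, which directs the complex to the endosome, rose by 0.52 (adjusted p = 0.020) from a low mean of 25.8 and did not pass after median centring (0.07). It was -0.16 after quantile normalization, without passing, and the call was also lost with robust moderation (adjusted p = 0.078) and without control replicate A (adjusted p = 0.067) or pterostilbene replicate B (adjusted p = 0.071). *ATG14*, its counterpart in autophagy, did not pass (-0.04), although it passed as lower after quantile normalization (-0.76).

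Of the 4 GARP genes, whose products tether endosome vesicles at the Golgi, *VPS51* rose (0.68, SE 0.21, adjusted p = 0.040) and *VPS52* (-0.03), *VPS53* (0.24) and *VPS54* (0.41, adjusted p = 0.070) did not pass. *VPS51* was the dimmest member and kept its call in 6 of 15 alternatives, with -0.0067 after quantile normalization and adjusted p values of 0.065 to 0.11 without pterostilbene replicate A or any 1 of the controls. In the membrane protein pair, *VPS68* rose by 0.50 (SE 0.12, adjusted p = 0.016), and not after median centring (0.05, adjusted p = 0.73), nor without control replicate A (adjusted p = 0.060) or pterostilbene replicate B (adjusted p = 0.0501), while *VPS55* (0.09, adjusted p = 0.62) did not pass. The 4 genes of the AP-3 coat, *APL5*, *APL6*, *APM3* and *APS3*, supply a second route to the vacuole. With deposited signals they did not pass in limma, at an unadjusted p under 0.05 (0 genes) or in the methods' t-test (0 genes). They lay between -0.18 and 0.35. *APL6* and *APM3* passed as lower after quantile normalization (-0.50 and -0.46) and median centring (-0.63 and -0.59), where 30.4% and 39% of all genes fell.

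*VPS1*, a dynamin-like GTPase of the Golgi and endosome, fell from 493, 458 and 405 to 241, 278 and 290 (log2 fold change -0.75, SE 0.13, adjusted p = 0.0058). No treated array came near the lowest control, and the fall passed in all 16 alternatives. Of the chromosomal neighbours of *VPS1*, *MET14* fell as well (-1.73, adjusted p = 7.6e-04) and *PAP1* did not pass (adjusted p = 0.98). The part of this position was not tested. *VPS13*, a lipid transfer protein of membrane contacts, had -0.23 (adjusted p = 0.16), and *VPS74*, which holds mannosyltransferases in the Golgi, had -0.33 (adjusted p = 0.051). Both passed as lower under quantile normalization (-0.37 and -0.74), under median centring (-0.68 and -0.79) and with array weights (-0.24 and -0.42). *VPS74* also passed as lower in the methods' t-test, with the pseudocount, the dimmest 25% left out, robust moderation or averaged probe sets.

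The 3 chromatin genes in the family passed in opposite directions. *VPS75*, a histone chaperone that works with the acetyltransferase Rtt109p, fell from 383, 329 and 391 to 138, 154 and 156, a log2 change of -1.30 ± 0.12 (SE; adjusted p = 7.0e-04). This was the deepest fall among the members, with treated signals below 0.5 of the control ones, and it passed in all 16 alternatives. *CWC25*, a splicing gene whose RefSeq model overlaps the end of *VPS75* on the opposite strand, had 1.05 (SE 0.19, adjusted p = 0.0068). *VPS71* and *VPS72*, subunits of the SWR1 complex that places the histone variant H2A.Z, rose by 0.95 (SE 0.14, adjusted p = 0.0032) and 0.61 (SE 0.18, adjusted p = 0.038). *VPS71* passed in all 16 alternatives and *VPS72* in 8. *VPS72* was 0.20 (adjusted p = 0.43) after quantile normalization and 0.16 (adjusted p = 0.51) after median centring, and did not pass in the methods' t-test (adjusted p = 0.072), with adjusted p values of 0.050 to 0.11 when any 1 array other than pterostilbene replicate C was left out. *VPS72* lies between *VPS52* and *VPS60* on the chromosome, and neither of these neighbours passed.

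Members with less defined roles included *VPS73*, which rose from 100.1, 107 and 111 to 260.0, 280.4 and 292, a log2 change of 1.39 ± 0.10 (SE; adjusted p = 3.8e-04). The rise had the smallest adjusted p of any member and passed in all 16 alternatives. *VPS64* (*FAR9*), of the complex for arrest by pheromone, rose by 0.89 (SE 0.19, adjusted p = 0.013) and did not pass after quantile normalization (0.48) or median centring (0.44). *VPS70* had 0.30 (adjusted p = 0.068). *VPS62* had -0.78 (SE 0.34, adjusted p = 0.11), with a treated array, replicate C, at 58.1 beside 129 and 126 and controls of 166, 190.0 and 153.

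Scaling decided many of the smaller changes. With quantile normalization 8 *VPS* genes rose and 12 fell, where 21.6% and 30.4% of all genes did. Besides the 4 that fell as deposited, the 12 were *VPS9*, *VPS13*, *VPS24*, *VPS25*, *VPS45*, *VPS52*, *VPS62* and *VPS74*, and median centring added *VPS34* and *VPS60* to them. With median centring 6 rose and 14 fell, where 19.3% and 39% did. With reference gene centring 21 rose and 4 fell, where 43.7% and 14.5% did. Besides those that rose as deposited, the 21 were *VPS4*, *VPS17*, *VPS33*, *VPS53*, *VPS54* and *VPS70*. *VPS20*, *VPS35*, *VPS71*, *VPS73* and *VPS501* rose, and *VPS1*, *VPS15*, *VPS28* and *VPS75* fell, under each of these scalings and with the signals as deposited. These are 5 and 4 of the 41 members, where 17.9% and 13.5% of all genes kept a rise or a fall in this way.

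**Figure D4:**
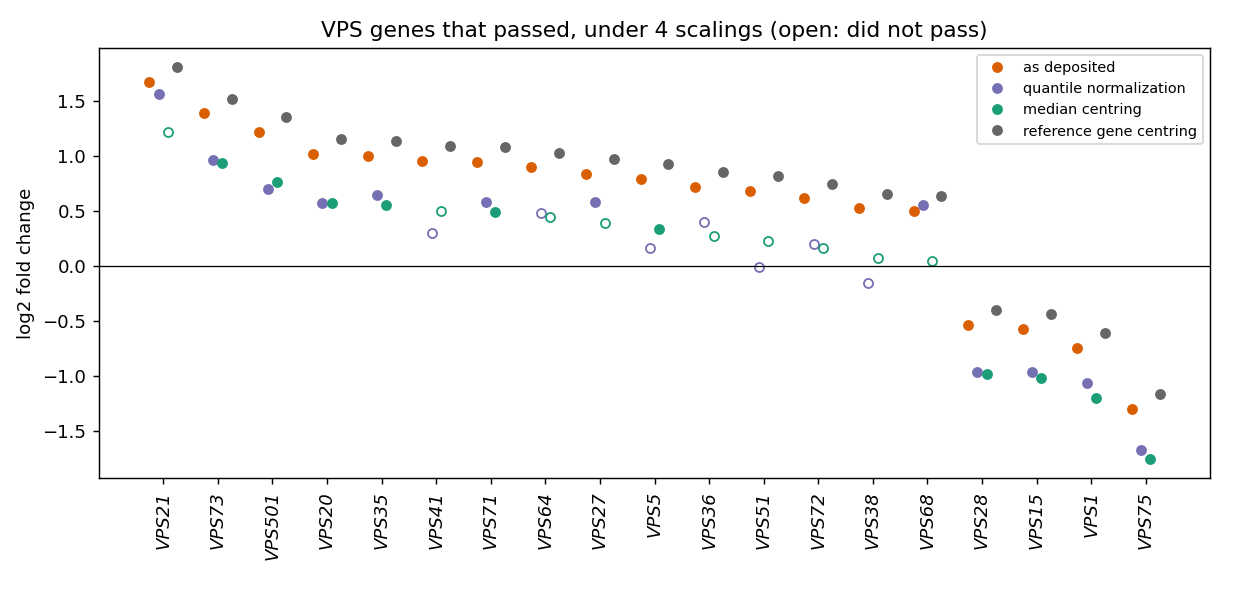
Log2 fold change of the 19 *VPS* genes that passed, as deposited and under quantile normalization, median centring and reference gene centring, with open circles where a value did not pass. The 4 genes at the right, *VPS28*, *VPS15*, *VPS1* and *VPS75*, stay below 0 and filled throughout, while *VPS51* and *VPS38* reach 0 or below after quantile normalization.

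Level and change were linked on these arrays as a whole. Over all genes, those under the median signal of 232 had a median log2 fold change of 0.42, with 41.7% that rose and 8.35% that fell, and those above it had -0.01, with 30.0% that rose and 28.5% that fell. The 23 *VPS* genes under this signal had a median of 0.21, with 9 (39.1%) that rose and 2 (8.70%) that fell, and the 18 above it had 0.29, with 6 (33.3%) that rose and 2 (11.1%) that fell. Among partners without a *VPS* symbol, 34 in all and 15 with a *VPS* alias in RefSeq, 14 (41.2%) rose and 3 (8.82%) fell, beside 35.8% and 18.4% of all genes, with a median of 0.20. With quantile normalization 6 rose and 12 fell, with median centring 4 and 11, and with reference gene centring 14 and 2. Besides the 3 that fell as deposited, the 12 were *SRN2*, *SNF8*, *DID4*, *BRO1*, *PEP5*, *PEP3*, *ATG14*, *APL6* and *APM3*. Median centring added *STP22* to them and left out *SRN2* and *ATG14*. Those that passed at least 1.5-fold higher and are not yet named were *DID2* (*VPS46*, 0.92) and *CHM7* (0.72), both ESCRT-III proteins, and *DOA4* (0.79), the deubiquitinase of the pathway. None of these 3 passed after quantile normalization (adjusted p = 0.056, 0.18 and 0.15) or median centring (adjusted p = 0.061, 0.18 and 0.086). Besides *PEP8* and *YPT7*, *VTA1* (-0.50, adjusted p = 0.022), the activator of Vps4p, fell, but did not pass with reference gene centring (-0.36, adjusted p = 0.0502) or without control replicate A or B or pterostilbene replicate A or C (adjusted p = 0.051 to 0.070). With deposited signals *IST1* (0.14) and *BRO1* (*VPS31*, -0.17) did not pass.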

How the data were processed

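Biotin-labelled RNA of 6 cultures was read on 6 Affymetrix S98 yeast arrays, 1 a culture. The authors deposited linear intensity values, scaled per array in GCOS 1.1 (version from the submitters' processing notes). The summarisation algorithm and background are not given in the sources used here. Of 9335 probe sets, 60 controls were set aside and 9275 tested. The 23 signals of 0 were raised to 0.1 before log2. Genes were named from the platform annotation, each by its brightest probe set (315 genes had several), and aliases and gene order come from RefSeq's R64 table (75 of 75 listed genes matched).

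The 2 groups were compared in R 4.3.3 by limma 3.58.1 (lmFit, eBayes, Benjamini-Hochberg over all probe sets). An exact two-sided permutation test of 3 against 3 arrays cannot go below p = 0.1, and the number of arrays limits the precision. Values of every array are given for members that passed with a 2-fold change, passing members of ESCRT, retromer, HOPS and CORVET, and members that fell. Those of *VPS29*, *VPS62*, *PEP8*, *PEP12*, *YPT7* and *PEP3*, with *YPT53*, were added after their values were seen. So were the neighbours of *VPS35*, *VPS51*, *PEP12*, *VPS73*, *VPS1* and *VPS75* that are named, and the directions given for neighbours of other members. Partners that passed at least 1.5-fold were named. The members and lists were chosen with earlier results of these data known. Alternatives were 3 scalings, a pseudocount of 8.7, the dimmest 25% left out, array weights, averaged probe sets, the t-test of the methods, robust moderation with a trend, a block for the replicate letter and each array left out. The fit was tested on simulated data. Promoter and protein sequences were not analysed here.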

Additional observations from a re-analysis of the deposited data

Results flagged for a closer look

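Signals outside the main measurement were higher on the pterostilbene arrays than on the controls in 2 sets of control probe sets. Bacterial poly-A control transcripts, 15 probe sets, were 3.79-fold higher on average, with 14 of 15 higher, and ribosomal RNA control probe sets, 10 in all, were 6.81-fold higher, with 10 of 10 higher. Hybridization controls, 9 probe sets, differed by 1.06-fold. Groups of 3 arrays were too small for a search for outlying arrays.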

How the results depend on the processing

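The number of *VPS* genes that rose, 15, was 8 with quantile normalization and 6 with median centring, and the number that fell, 4, was 12, 14 and 7 after quantile normalization, median centring and array weights. With 1 array left out 10 to 15 rose and 3 to 5 fell, where 28.6% to 33% and 13.1% to 19.3% of all genes did, and without control replicate B, read also on its own after its low *VPS21* signal was seen, 13 rose and 3 fell. The median log2 fold changes were -0.058, -0.20 and 0.38 for all members, -0.18, -0.29 and 0.30 for ESCRT, 0.089, 0.10 and 0.69 for retromer and -0.31, -0.24 and 0.34 for HOPS and CORVET after quantile normalization, median centring and reference gene centring. For retromer it was also 0.49 with the pseudocount, 0.65 with array weights and 0.52 to 0.65 with 1 array left out. The sign of the log2 change differed from that of deposited signals for 13, 15 and 3 of the 41 members under quantile normalization, median centring and reference gene centring. Among members that passed in either fit, it turned after quantile normalization for *VPS25* (-0.33), *VPS9* (-0.39) and *VPS45* (-0.31), which then passed, and for *VPS38* (-0.16) and *VPS51* (-0.0067), which then did not pass, and median centring turned *VPS25* (-0.37), *VPS9* (-0.34) and *VPS45* (-0.32). The replicate letters mark no shared origin in the labels, and deviations from the group means of equally lettered arrays correlated at -0.02 (A), -0.04 (B) and -0.01 (C); with the letter as a block 13 *VPS* genes rose and 3 fell, beside 28.1% and 12.4% of all genes, where 35.8% and 18.4% did without it. Among members, calls of *VPS15* (adjusted p = 0.071), *VPS51* (0.10) and *VPS64* (0.053) were lost there, and among partners those of *PEP8* (0.066), *VTA1* (0.078), *PEP1* (0.060), *VAM6* (0.052) and *YPT52* (0.056). The causes of these differences were not tested. Dim genes such as *VPS51*, *VPS38*, *VPS3* and *VPS41* are limited by signal over background.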
